A study of Mus musculus with 20 samples.

Results

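The nuclear genes that encode subunits of respiratory complexes I to IV were described in lenses of newborn and late embryonic mice that lack 3 E2F transcription factors. The genes were taken by symbol: Ndufa, Ndufb, Ndufc, Ndufs and Ndufv genes and Ndufab1 for complex I, Sdha to Sdhd for complex II, Uqcr genes for complex III, and Cox4i, Cox5, Cox6, Cox7 and Cox8 genes for complex IV. Assembly factors and pseudogenes were left out. The rule used symbols and no measured difference, but it was set with earlier results of these data known. This gave 65 of 18193 genes on the array, of which 36 belong to complex I, 4 to complex II, 8 to complex III and 17 to complex IV. For each gene the brightest of its probe sets, on average over the 20 arrays, was read. Genes were tested if this value exceeded the median of the array in at least 5 arrays, which 61 of the 65 did, among 11859 genes tested in all. The other 4, Cox4i2, Cox7a1, Cox7b2 and Ndufb4, lay below the array median on all 20 arrays.

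The respiratory chain passes electrons from NADH (at complex I) and from succinate (at complex II) through complex III to complex IV, which reduces oxygen, and ATP synthase uses the proton gradient that complexes I, III and IV build. Most subunits are made from nuclear genes and imported into mitochondria, where they join the few subunits that mitochondrial DNA encodes. In the lens, mitochondria are kept in the epithelium and in young outer fibre cells and are removed from fibre cells as these mature. The E2F proteins are transcription factors known for driving genes of DNA replication and cell division.

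The study compared control lenses (genotype E2F2-/-) with triple knockout (TKO) lenses (Cry-Cre E2F1-/- E2F2-/- E2F3f/f) in late embryos (stage E17.5) and at birth (P0), and its stated aim was to find the events that precede the collapse of TKO lenses. Each of the 4 groups had 5 Affymetrix arrays, and each array held RNA from both lenses of a mouse. E2F2 was absent in every group, and Cry-Cre was present in TKO groups only. Cre driven by a crystallin promoter deletes floxed E2F3 only in cells in which that promoter is active, whereas the null alleles of E2F1 and E2F2 affect all cells. No label names a litter, a sex, a strain or a batch, so the p-values measure only the spread between these samples. The labels name the cells as epithelial, yet genes of fibre cells were high: Mip, the main membrane protein of lens fibres, averaged 13.3 at E17.5 and 13.5 at P0 in controls on a log2 scale whose highest value was 15. In such bulk samples, fewer cells of a type and less RNA per cell cannot be told apart.

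Upstream sequence was available for 52 of the 65 genes, from RefSeq (GRCm38.p6), as windows of 250 bases before to 50 bases after the annotated start. Nuclear respiratory factor 1 (NRF1) and GA-binding protein (GABP, also called NRF2) are the classical activators of these genes. Letters of the NRF1 motif (GCGCA, any base, then GCGC, on either strand) were present in 17.3% of the 52 windows, against 11.4% of tested genes with a window and 5.19% of all genes with one. The GABP motif (CCGGAAG) was present in 21.2%, against 19.6% and 9.93%. The YY1 motif (AAGATGGC) was present in 11.5%, against 5.32% and 3.19%. A form of the E2F motif (TTTCCCGC, TTTCGCGC, TTTGCCGC or TTTGGCGC) was present in 3.85%, against 4.69% and 2.60%. The NRF1 letters were in the windows of 2 of 20 genes higher at P0 (10%), Sdhd and Ndufa8, and of 6 of 29 tested genes not higher (20.7%). The other motifs were more frequent among the genes higher at P0. The shares were 25% against 20.7% for GABP, 20% against 6.9% for YY1 and 5% against 3.45% for E2F. These differences rest on few genes and were not tested. Ndufab1, which also rose, has none of these 4 motifs in its window. A match is a description of letters and not of binding. Sequence 120 bases long directly before the start is shown for Sdhd, which was higher in TKO lenses at both stages, for Ndufa8, higher at P0, and for Cox6b2, which had the largest change. The GABP and NRF1 matches are in capitals (a GABP match on the other strand reads CTTCCGG), and the Cox6b2 stretch has no match. All 3 are on the minus strand and are written 5′ to 3′, at chr9:50603850-50603969, chr2:36049339-36049458 and chr7:4753095-4753214.
Sdhd: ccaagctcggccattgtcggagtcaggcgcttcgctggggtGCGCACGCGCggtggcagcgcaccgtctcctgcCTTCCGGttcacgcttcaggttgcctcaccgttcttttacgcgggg
Ndufa8: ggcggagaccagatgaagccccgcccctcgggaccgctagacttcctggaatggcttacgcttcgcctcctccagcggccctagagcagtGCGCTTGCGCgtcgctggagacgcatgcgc
Cox6b2: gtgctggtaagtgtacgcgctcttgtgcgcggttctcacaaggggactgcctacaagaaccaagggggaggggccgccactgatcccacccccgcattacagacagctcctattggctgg

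Values are log2 expression as deposited, and array medians lay between 5.05 and 5.25. Precision is limited by there being 5 arrays a group. The median SD of the 61 genes was 0.0624 in control E17.5, 0.0498 in control P0, 0.178 in TKO E17.5 and 0.095 in TKO P0. TKO E17.5 replicate 28 stood apart: it was the highest of the 10 E17.5 arrays for 42 of the 61 genes (68.9%, against 24.1% of all genes tested) and the lowest for 10 (16.4%, against 32.2%). It was also the highest TKO E17.5 array for summed vessel, macrophage and erythroid markers, and the lowest array for summed lens markers (17.1, against 17.22 to 17.52 on the others). TKO E17.5 replicates 24 and 27 correlated more with controls of their stage (0.990 and 0.993 over all probe sets) than with their own group (0.985 and 0.988). The array's E2F probe sets do not check the labels, because it is not given here whether they lie in the deleted parts: E2f1 was higher in TKO lenses by 0.44 ± 0.08 at P0 and 0.60 ± 0.08 at E17.5 (SE), and E2f3 differed by -0.06 ± 0.09 and -0.07 ± 0.09.

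Other signals were also compared by genotype. At P0, 34.4% of all genes tested passed the test given below, 17.1% higher and 17.3% lower. The share was 92.9% for retina and 77.8% for pigment cell markers. It was 22.2% for macrophage, 9.09% for vessel, 33.3% for striated muscle and 21.4% for lens markers. Of 14 tested retina markers, 13 were higher in TKO lenses (median change 1.58). Their summed log2 level was 10.7 to 11.9 against 8.97 to 10.3 in controls. Pigment cell markers were higher for 7 of 9 tested (summed level 11.2 to 12.2 against 9.72 to 10.4) and macrophage markers for 2 of 9 (9.89 to 10.9 against 9.12 to 10.3). Of 11 vessel markers 1 was lower (11.3 to 11.9 against 11.6 to 12.7). Of 15 striated muscle markers, 12 were too dim to test and 1 of the other 3 was lower. Of 14 lens markers, Pax6 was higher and Gja3 and Cdh1 were lower, and the summed lens level was 17.45 to 17.52 in TKO and 17.46 to 17.51 in control lenses. The difference between the 5′ and 3′ control probe sets of Gapdh, a sign of RNA integrity, was -0.06 to 0.06 in all 10 controls and 0.10 to 0.20 in all 10 TKO arrays. The same difference for beta-actin overlapped, with -1.03 to -0.86 in controls and -1.01 to -0.70 in TKO arrays. The part of these signals in the results below was not tested, beyond a fit with the retina markers as a covariate.

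At birth, subunit genes of all 4 complexes were higher in TKO lenses than in control lenses. Of the 61 tested, 25 rose, 1 fell and 35 did not pass (limma, Benjamini-Hochberg adjusted p below 0.05 over all genes tested). Over all genes tested, 34.4% passed, 17.1% higher and 17.3% lower, and of the subunit genes 41% were higher and 1.64% lower. Among brighter genes the share over all genes was larger. With the filter set at the 75th percentile, 28 of 58 subunit genes passed (48.3%, against 42.5% of all genes). The change was positive for 51 of the 61, and its median was 0.17 (1.12-fold) beside -0.0063 over all genes tested. All 5 TKO arrays lay above all 5 control arrays for 29 genes, and below them for 1, where the shares over all genes were 13.2% and 12.7%. The sizes were small apart from Cox6b2, which rose 3.18-fold: the other 24 rose 1.13-fold (Ndufc2) to 1.44-fold (Ndufab1).

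**Figure D1:**
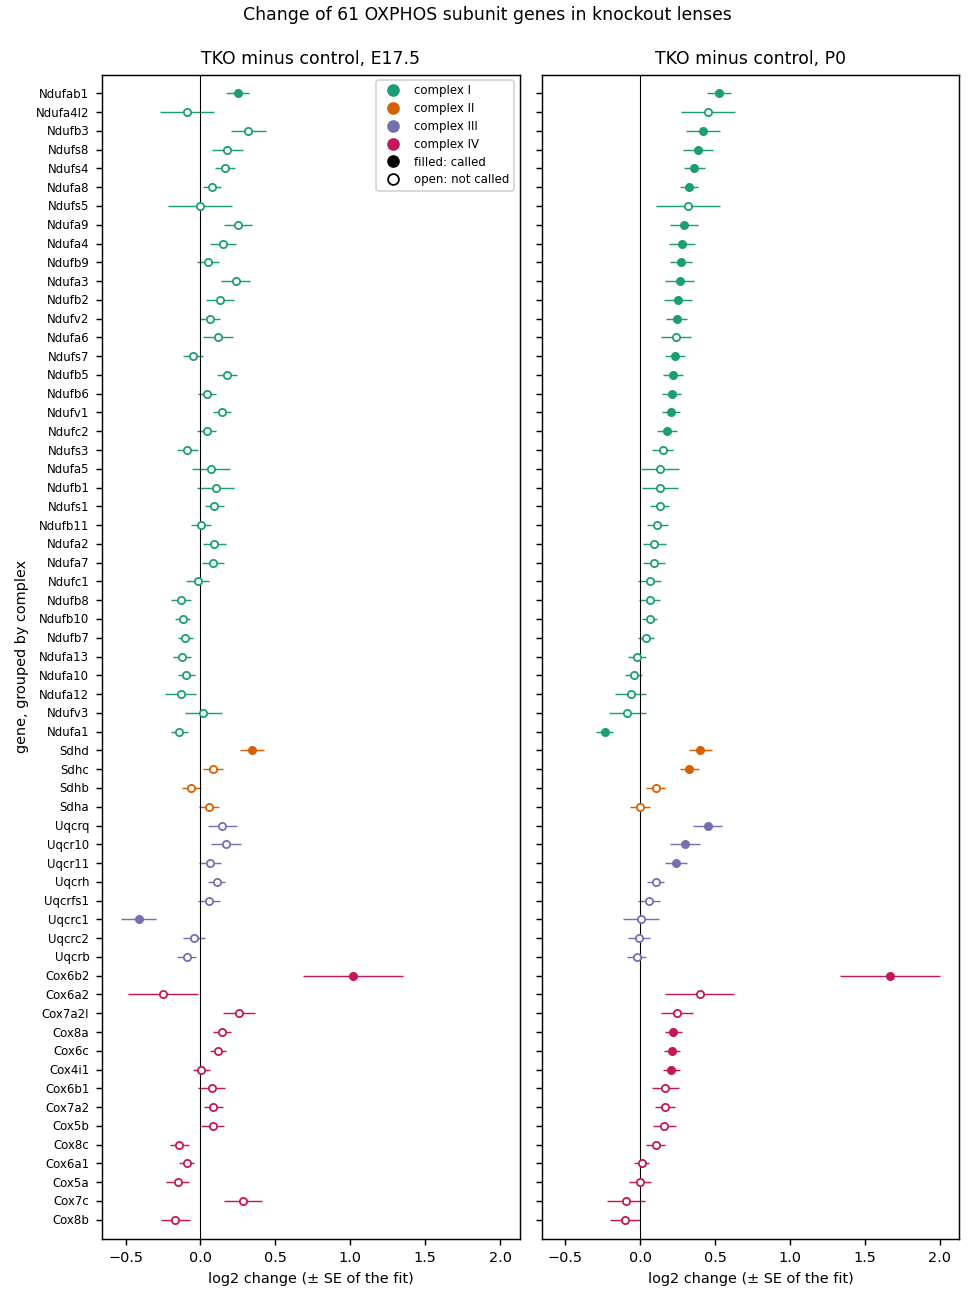
Log2 change between TKO and control lenses (x axis) for each tested subunit gene (y axis, grouped by complex) at P0 and at E17.5, as points with standard errors; filled points passed the test. At P0, 25 genes passed on the higher side and only Ndufa1 on the lower side, and at E17.5 3 passed higher and 1 lower.

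Complex I had 16 genes higher and 1 lower of 35 tested, with a median change of 0.20. With the probe sets of a gene averaged, 8 were higher and 1 lower, with a median of 0.14. Ndufv1, Ndufv2, Ndufs4, Ndufb2, Ndufb5, Ndufb6, Ndufa3 and Ndufab1 then did not pass. With the retina markers as a covariate 9 were higher, and Ndufv1 and Ndufs8 were among those that did not pass. Among the core subunits, which carry the flavin and iron-sulphur centres or form the quinone site, 4 of 6 tested rose: Ndufs8, Ndufv2, Ndufs7 and Ndufv1. Ndufs8, which holds iron-sulphur clusters near the quinone site, read 11.08, 11.14, 11.06, 11.08 and 11.10 in control P0 and 11.49, 11.59, 11.58, 11.38 and 11.35 in TKO P0 lenses. The groups did not overlap, and the change was 0.39 ± 0.10 (SE; 1.31-fold, adjusted p = 0.00768). Of the Ndufb subunits, which lie in the distal part of the membrane arm, 5 of 10 rose (Ndufb3, Ndufb9, Ndufb2, Ndufb5 and Ndufb6), led by Ndufb3 with 0.42 ± 0.12 (adjusted p = 0.00965). Of the 19 other accessory subunits 7 rose, namely Ndufab1, Ndufs4, Ndufa8, Ndufa9, Ndufa4, Ndufa3 and Ndufc2. Ndufa4 is counted here by its name, and its protein is now known as a subunit of complex IV.

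Ndufab1, the mitochondrial acyl carrier protein, which also serves fatty acid and lipoic acid synthesis, read 11.18, 11.17, 11.14, 11.19 and 11.33 in control P0 lenses. In TKO P0 lenses it read 11.82, 11.87, 11.88, 11.44 and 11.63. Every TKO array lay above every control array, with replicate 21 lowest. The change was 0.53 ± 0.08 (SE; adjusted p = 0.000183). Its probe sets did not run together: a dimmer probe set rose by 0.27 ± 0.08, and another, with a mean of 5.64, fell by 0.86 ± 0.14. With the probe sets of a gene averaged, Ndufab1 differed by -0.09 and was not called, so its direction depends on the probe set. Counted by probe set, 41 of 119 tested probe sets of these genes were higher at P0 and 3 lower, beside 17.2% and 16.8% of all probe sets.

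Ndufa1, a small membrane-arm subunit from the X chromosome, was the only gene of the 61 to fall at P0. It read 13.86, 13.85, 13.87, 13.83 and 13.84 in control and 13.64, 13.48, 13.63, 13.71 and 13.62 in TKO lenses. The groups did not overlap, and the change was -0.24 ± 0.06 (SE; 0.849-fold, adjusted p = 0.00383). The call was lost with the retina markers as a covariate (-0.20).

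In complex II the membrane anchors rose and the catalytic subunits did not pass. Sdhd, an anchor that binds haem and quinone with Sdhc, read 10.10, 10.17, 10.04, 10.02 and 10.21 in control P0 lenses, and 10.5, 10.45, 10.46, 10.49 and 10.65 in TKO P0 lenses. The lowest TKO array was above the highest control array, and the change was 0.40 ± 0.08 (SE; 1.32-fold, adjusted p = 0.00106). With the probe sets of Sdhd averaged it was 0.25, still called. Sdhc rose by 0.33 ± 0.07 (adjusted p = 0.00116). The flavoprotein subunit Sdha differed by -0.0009 ± 0.07 (adjusted p = 0.994) and the iron-sulphur subunit Sdhb by 0.10 ± 0.06 (adjusted p = 0.227). Complex II has no subunit encoded by mitochondrial DNA.

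In complex III, 3 of the 5 small subunits rose (Uqcrq, Uqcr10 and Uqcr11), and none of the core proteins Uqcrc1 and Uqcrc2 or the Rieske iron-sulphur protein Uqcrfs1 passed, with changes of 0.01, -0.01 and 0.06. Uqcrq, which contacts cytochrome b, read 10.86, 10.90, 10.82, 10.91 and 10.97 in control P0 lenses. It read 11.52, 11.51, 11.44, 11.10 and 11.13 in TKO P0 lenses. TKO replicates 17, 18 and 19 were high, and replicates 21 and 22 lay just above the controls. The change was 0.45 ± 0.10 (SE; adjusted p = 0.00191). It was lost when the probe sets of the gene were averaged and when probe sets that can cross-hybridise (suffix _x_at or _s_at) were left out. Differences between the roles within a complex were not tested.

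**Figure D2:**
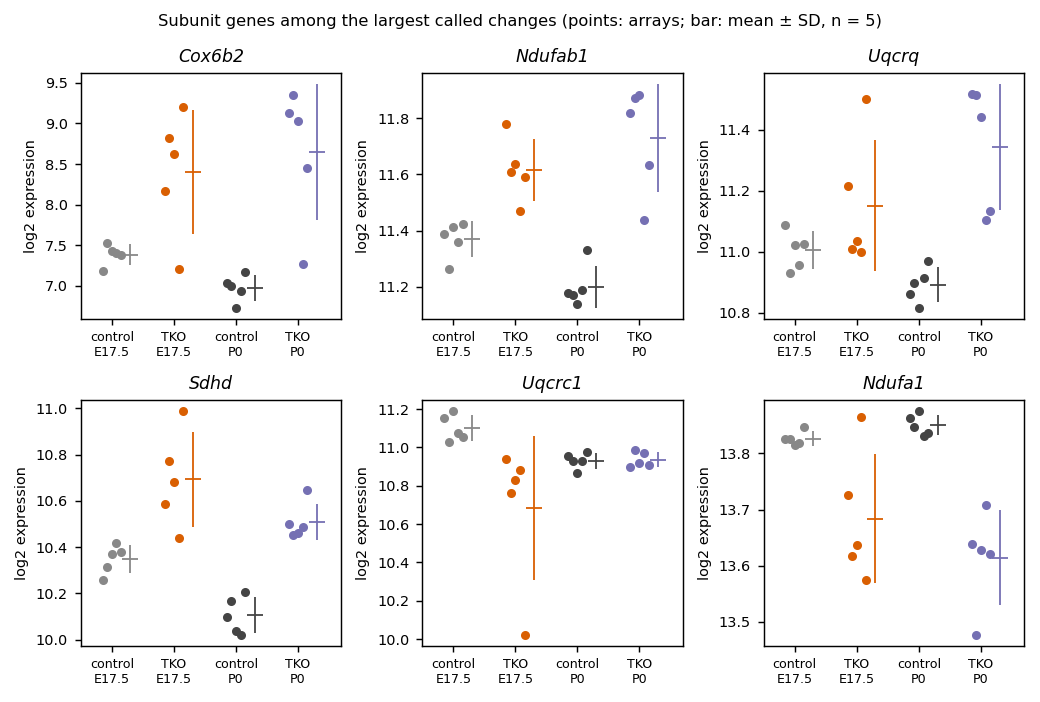
Log2 expression of 6 subunit genes among the largest called rises and falls of the genotype comparisons, with 1 point per array and the mean with SD of 5 arrays beside each group. In Cox6b2, 4 of 5 TKO arrays at each stage lie well above the controls, and in Uqcrc1 replicate 28 of TKO E17.5 is the lowest at 10.02.

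Complex IV had 4 of 14 genes higher: Cox6b2, Cox8a, Cox6c and Cox4i1. Cox6c did not pass with its probe sets averaged, and Cox8a and Cox4i1 did not with the retina markers as a covariate. Cox6b2 encodes the testis isoform of a subunit that sits between the monomers of the complex IV dimer. It read 7.03, 7.0, 6.73, 6.94 and 7.17 in control P0 lenses, and 9.12, 9.35, 9.03, 7.27 and 8.45 in TKO P0 lenses. All TKO arrays were above all controls, and replicate 21 only just so. The change was 1.67 ± 0.33 (SE; adjusted p = 0.00121). With the retina markers as a covariate it was 1.62 and still called. On the same TKO arrays the pigment cell markers deviated from their control means by 2.03, 2.18, 2.14, 0.91 and 1.45 (median). Like Cox6b2, they were lowest in replicate 21 and next lowest in replicate 22. The part of pigment cells in the Cox6b2 change was not tested. None of the 3 tested genes next to Cox6b2 on its chromosome passed (Tmem150b -0.05, Kmt5c -0.18, Tmem238 0.01). Its somatic partner Cox6b1 differed by 0.17 ± 0.09 (adjusted p = 0.161).

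The other isoforms known from particular tissues did not pass at P0. Cox6a2, the isoform of heart and muscle, differed by 0.40 ± 0.23 (adjusted p = 0.195), Cox8b by -0.10 ± 0.10 and Cox8c by 0.10 ± 0.06. Cox4i2 (lung), Cox7a1 (heart and muscle) and Cox7b2 (testis) were not tested, and their control P0 means were 4.63, 4.29 and 2.73. Ndufa4l2, a hypoxia-induced paralog of Ndufa4, differed by 0.45 ± 0.18 (adjusted p = 0.0577). Among the usual isoforms, Cox4i1 rose by 0.21 ± 0.06 (adjusted p = 0.00812), Cox8a by 0.22 ± 0.06 (adjusted p = 0.00808) and Ndufa4 by 0.28 ± 0.09 (adjusted p = 0.0194). Cox6a1 (0.01 ± 0.05) and Cox7a2 (0.17 ± 0.06, adjusted p = 0.0519) did not pass.

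The rise at P0 was not equal over the TKO arrays. Taking for each gene the deviation from its control mean, the median over the 61 genes was 0.21, 0.23 and 0.23 in TKO P0 replicates 17, 18 and 19, and 0.13 and 0.08 in replicates 21 and 22. The control P0 arrays lay between -0.03 and 0.03. The retina markers deviated by 1.34, 1.92 and 1.12 in replicates 17, 18 and 19, and by 2.44 and 1.03 in replicates 21 and 22. They were highest in replicate 21 and, like the subunit genes, lowest in replicate 22. The pigment and macrophage markers were, like the subunit genes, higher in replicates 17, 18 and 19 than in 21 and 22. Pigment markers deviated by 2.03, 2.18 and 2.14 in the first 3 and by 0.91 and 1.45 in the other two. Macrophage markers deviated by 1.30, 1.15 and 1.03 in the first 3 and by 0.34 and 0.39 in the other two, and the part of both in the rise was not tested. With the retina markers as a covariate, 14 genes remained higher and none lower at P0, all 14 among the 25, while the share of all genes called was 15%. The median change stayed near its former value in each complex: 0.23 with the covariate against 0.20 without in complex I, 0.20 against 0.22 in complex II, 0.09 against 0.08 in complex III and 0.16 against 0.17 in complex IV. Ndufs8 was at 0.39 ± 0.13 (SE) with the covariate and was not called. Leaving out each array in turn left 20 to 28 called (32.8% to 45.9%), where 25.8% to 36% of all genes were called. Ndufa3, Ndufb2 and Ndufc2 lost their call under 11 or 12 of 20 alternatives and Uqcr10 under 5. Ndufa3 (0.22 to 0.29) and Ndufb2 (0.22 to 0.26) lost it without control replicate 1, 5, 6 or 7 or TKO replicate 17, 18, 19 or 21, and Ndufc2 (0.15 to 0.18) without control replicate 5, 6, 7 or 8 or TKO replicate 17, 18 or 19. Uqcr10 (0.27 to 0.29) lost it without control replicate 6 or TKO replicate 17, 18 or 19, and Ndufa9 (0.26) and Uqcr11 (0.20) without TKO replicate 18.

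**Figure D3:**
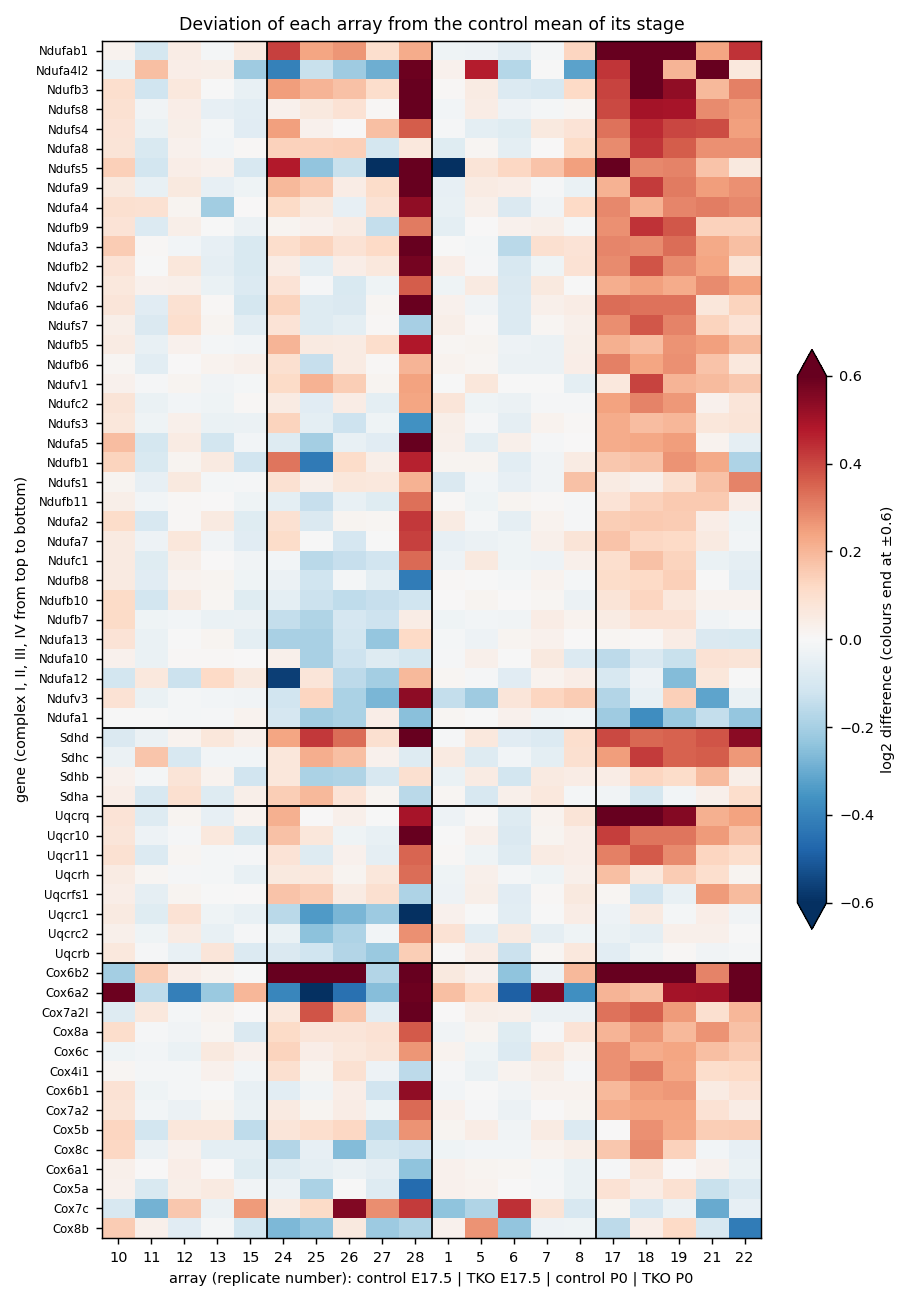
Deviation of each tested subunit gene (rows, by complex) from its control mean of the same stage on each of the 20 arrays (columns, by group), as log2 difference in colour. TKO P0 replicates 17 to 19 and TKO E17.5 replicate 28 hold the most raised values.

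At E17.5 few subunit genes differed. Of the 61, 3 rose, 1 fell and 57 did not pass, where 13% of all genes tested passed (5.54% higher and 7.45% lower). The share called among the subunit genes, 6.56%, was below that background. All TKO arrays lay above all controls for 4 genes and below them for 1, where the shares over all genes were 4% and 5.95%. The median change was 0.07 beside -0.03 over all genes. The risen genes were Cox6b2, Sdhd and Ndufab1, which also rose at P0, and the fallen gene was Uqcrc1.

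Cox6b2 read 7.18, 7.53, 7.43, 7.41 and 7.38 in control E17.5 lenses, and 8.17, 8.82, 8.63, 7.21 and 9.20 in TKO E17.5 lenses. Replicate 27 lay within the controls and the other 4 above them, and the change was 1.02 ± 0.33 (SE; adjusted p = 0.0497). On the same TKO arrays the pigment cell markers deviated by -0.69, 1.51, 0.86, -0.85 and 1.42, also lowest in replicate 27. Replicate 24 was above the controls in Cox6b2 though its pigment markers were below theirs. The part of pigment cells in this change was not tested. Sdhd read 10.26, 10.31, 10.37, 10.42 and 10.38 in control and 10.59, 10.77, 10.68, 10.44 and 10.99 in TKO lenses. The groups did not overlap, and the change was 0.35 ± 0.08 (SE; adjusted p = 0.011). With its probe sets averaged it was 0.15 and not called. Ndufab1 read 11.39, 11.26, 11.41, 11.36 and 11.42 in control and 11.78, 11.61, 11.64, 11.47 and 11.59 in TKO lenses. All TKO arrays were above all controls, with a change of 0.25 ± 0.08 (SE; adjusted p = 0.0448). The Ndufab1 change at E17.5 was 0.0025 when _x_at and _s_at probe sets were left out and 0.05 when its probe sets were averaged, and neither was called.

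Uqcrc1, a core protein of complex III of the mitochondrial processing peptidase family, read 11.15, 11.03, 11.19, 11.08 and 11.05 in control and 10.94, 10.76, 10.83, 10.88 and 10.02 in TKO E17.5 lenses. The groups did not overlap, and replicate 28 was far below the rest. The change was -0.41 ± 0.12 (SE; 0.751-fold, adjusted p = 0.0278), and -0.25 without replicate 28, still called. Of the rest of complex II, Sdhc differed by 0.08, Sdha by 0.06 and Sdhb by -0.06, and none passed.

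These E17.5 calls depended on which arrays were used. Fitted on the E17.5 arrays alone, no subunit gene was called (7 passed 0.05 before adjustment, and the smallest adjusted p was 0.0711), while 2.89% of all genes were. Without TKO replicate 28 the count was 3 (4.92%, against 11% of all genes), with Cox6b2 at 0.82 and Ndufab1 at 0.25 no longer called, Ndufa13 newly called, and the median change at 0.001. Without replicate 27 it was 9 (14.8%, against 21.1% of all genes) and the median 0.10. Without both replicates 24 and 27, an alternative chosen after seeing the data, it was 10 (8 higher and 2 lower; 16.4%, against 32.3% of all genes). Without control replicate 10, 12 or 13 it was 1, and without control replicate 11 or 15 or TKO replicate 25 or 26 it was 2, where 7.04% to 9.76% of all genes were called. Cox6b2 lost its call under 12 of 21 alternatives, Ndufab1 under 16, Uqcrc1 under 6 and Sdhd under 2.

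**Figure D4:**
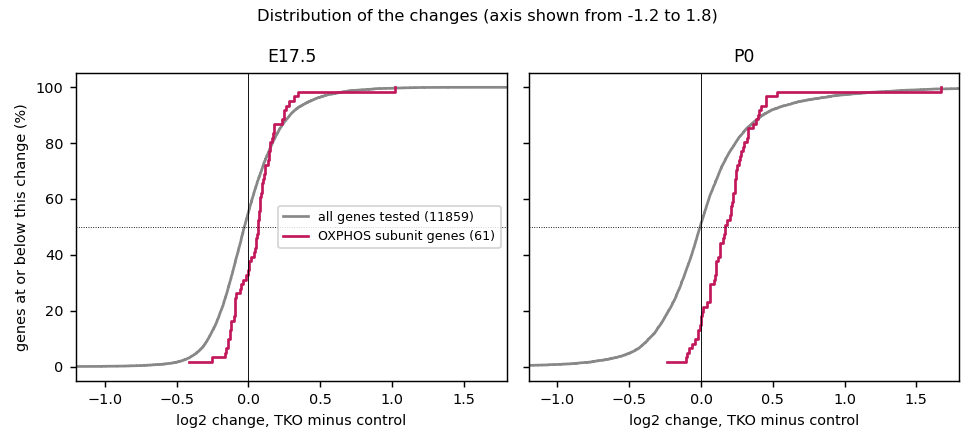
Cumulative share of genes (y axis, percent) at or below a given log2 change between TKO and control lenses (x axis) for the 61 subunit genes and for all 11859 genes tested, at E17.5 and at P0. At P0 the subunit curve crosses 50% at 0.17 and the curve of all genes at -0.0063.

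Whether the genotype difference itself differed between the stages was tested as P0 minus E17.5. No subunit gene passed in limma (12 passed 0.05 before adjustment, 11 of them positive, and Ndufs7 had the smallest adjusted p, 0.167). Over all genes tested 0.177% passed (0.0337% positive and 0.143% negative), and 15.7% passed 0.05 before adjustment. The difference was positive for 55 of the 61, with a median of 0.10 beside 0.03 over all genes. Without TKO E17.5 replicate 28 the median was 0.17 and Ndufs8 was called (0.34 ± 0.08, adjusted p = 0.0396). That more genes passed at P0 than at E17.5 therefore does not show, gene by gene, a larger difference at P0.

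Between E17.5 and P0 in control lenses, 7 subunit genes fell and none rose, where 17.3% of all genes passed (4.92% higher and 12.3% lower). The fallen genes were Ndufs1, Ndufs8, Ndufa8, Sdhd, Ndufb9, Sdhc and Ndufb7, and the median change over the 61 was -0.05 beside -0.04 over all genes. Ndufs1, the largest core subunit of complex I, had the largest fall among the genes that passed, by 0.40 ± 0.06 (SE; adjusted p = 0.000251), from 9.43 to 9.54 at E17.5 to 9.0 to 9.26 at P0. Cox6b2 differed by -0.41 ± 0.33 and did not pass. Sdhd fell by 0.24 ± 0.08 (adjusted p = 0.0416) and Sdhc by 0.22 ± 0.07 (adjusted p = 0.026). The stages did not overlap for 2 genes higher and 15 lower at P0, where the shares over all genes were 7.78% and 17.2%. A fit on the control arrays alone called 20 (2 higher and 18 lower), which is 32.8%, against 37.4% of all genes. Leaving out control arrays 1 at a time left 2 (P0 replicates 5, 6 and 7), 3 (P0 replicate 1, E17.5 replicates 12, 13 and 15) or 4 (P0 replicate 8, E17.5 replicates 10 and 11). These are 3.28% to 6.56% of the subunit genes, where 11.9% to 15.8% of all genes were called.

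In TKO lenses 7 subunit genes rose and 1 fell between the stages, where 33.2% of all genes passed (14.4% higher and 18.9% lower). Ndufs1 again fell, by 0.36 ± 0.06 (SE; adjusted p = 0.00039), from 9.51 to 9.69 to 9.11 to 9.38. The risen genes were Cox6a2 (0.65 ± 0.23), Cox8c (0.28 ± 0.06), Ndufs3 (0.23 ± 0.07), Cox4i1 (0.22 ± 0.06), Ndufb8 (0.20 ± 0.07), Ndufs7 (0.18 ± 0.06) and Cox6a1 (0.13 ± 0.05). The stages did not overlap for 3 genes higher and 1 lower at P0, where the shares over all genes were 4.73% and 7.02%. The median change was 0.09 beside -0.03 over all genes. Replicate 28 weighs on these values: without it 27 genes were called (25 higher and 2 lower), only 6 of them among the 8, and the median was 0.14. That is 44.3%, against 41.8% of all genes called without it. The count was 5 without replicate 17 or 18 (8.2%, against 25.4% and 26.8% of all genes). It was 4 without 19 or 25 (6.56%, against 25.4% and 27.5%) and 12 without 22 (19.7%, against 37.7%). The median was 0.06 without 25 and 0.04 without 27. A fit on the TKO arrays alone called 2 (3.28%, against 14.6% of all genes). The stage comparisons share their arrays with the genotype comparisons and are not further evidence for them.

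Other genes of mitochondrial energy metabolism were read from lists chosen like the subunit genes with earlier results of these data known. At P0 the share called was 31.2% for ATP synthase, 43.8% for electron carriers, 26.3% for assembly factors, 29.4% for the tricarboxylic acid cycle, 25% for biogenesis and 50% for removal of mitochondria, beside 34.4% of all genes. ATP synthase, which turns the proton gradient into ATP, had 5 of 16 genes higher at P0 and none lower (median 0.15), with the membrane subunits Atp5g1 (0.31 ± 0.06, adjusted p = 0.00141) and Atp5l (0.31 ± 0.07, adjusted p = 0.00245) at the smallest p. Atp5g1 turned to -0.04 when its probe sets were averaged. At E17.5 Atp5l rose (0.21) and Atp5d fell (-0.25). Array by array, ATP synthase moved with the subunit genes: its median deviation was 0.11 to 0.20 in TKO P0 arrays, 0.32 in TKO E17.5 replicate 28 and 0.01 to 0.06 in the other TKO E17.5 arrays.

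Electron carriers and coenzyme Q synthesis had 7 of 16 genes higher at P0 and none lower (median 0.17). Cycs, cytochrome c, rose by 0.64 ± 0.09 (SE; adjusted p = 0.000125), and Etfb, a subunit of the electron transfer flavoprotein, by 0.40 ± 0.07 (adjusted p = 0.000752). At E17.5 Cycs also rose (0.47 ± 0.09) and Coq9 fell (-0.36). Assembly factors had 9 of 38 higher and 1 lower at P0 (median 0.11), with Ndufaf1 (0.42) and Ndufaf5 (0.34) of complex I at the smallest p, while Acad9, which helps to assemble complex I, fell (-0.22). At E17.5 Sdhaf2, which helps to add the flavin to Sdha, and Cox16 rose (0.30 and 0.35).

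The tricarboxylic acid cycle list had 5 of 17 genes higher at P0 and none lower, with a median of 0.08. Suclg1 rose by 0.20 and Dld by 0.25 at P0, and at E17.5 Dld rose by 0.36 and Pcx fell by 0.30. Regulators of mitochondrial biogenesis moved both ways at P0, with 2 of 16 higher and 2 lower (median -0.02). The coactivator Ppargc1a rose by 1.01 ± 0.31 (adjusted p = 0.0159) and Tfam, which packages and transcribes mitochondrial DNA, by 0.23 ± 0.06, while Ppargc1b fell by 0.48 ± 0.14 and Pprc1 by 0.31 ± 0.11. At E17.5 Polrmt (-0.25) and Polg2 (-0.21) fell. Genes of mitochondrial removal also moved both ways, with 2 of 10 higher at P0 and 3 lower. Sqstm1, an autophagy receptor, rose by 0.85 ± 0.17 and Gabarapl1 by 0.33, while Bnip3, a mitophagy receptor, fell by 0.62 ± 0.14 (adjusted p = 0.00258) and Ulk1 by 0.32. At E17.5 none of the 10 passed, and Pink1 had the smallest p (-0.25 ± 0.09, adjusted p = 0.0781).

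**Figure D5:**
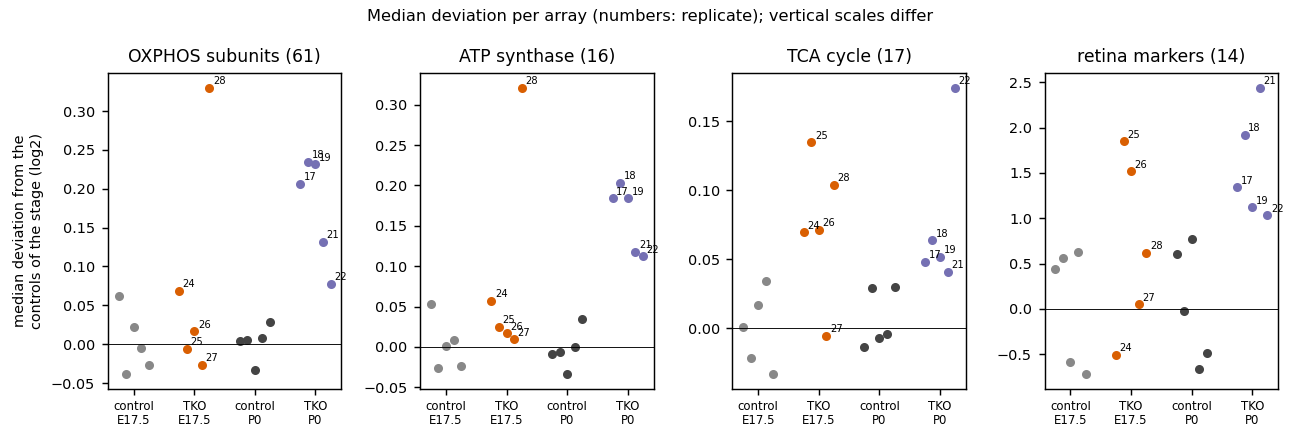
Median deviation from the control mean of the same stage (y axis, log2) on each array, by group, for the 61 subunit genes, 16 ATP synthase genes, 17 tricarboxylic acid cycle genes and 14 retina markers. Subunit and ATP synthase genes are raised in all 5 TKO P0 arrays and in 1 TKO E17.5 array (0.33 and 0.32), and the retina markers are highest in TKO P0 replicate 21.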

How the data were processed

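RNA from 20 mouse lens samples was measured on Affymetrix arrays. The authors deposited log2 values for each probe set, between 1.72 and 15, which were used as deposited. The log2 scale was inferred from these values. The sources used here do not give their normalization. Of 45101 probe sets, 64 were controls, 34945 named a single gene, 932 several and 9160 none. Symbols of 34741 were updated through RefSeq (GRCm38.p6), which also gave the order of neighbouring genes and the upstream sequences.

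Each gene was read from its brightest probe set, by mean over arrays, and tested where this lay above the array median (50th percentile) in at least 5 of 20 arrays. limma (version 3.58.1, R 4.3.3) was fitted to the 20 arrays together, with a mean for each group, 16 residual degrees of freedom and eBayes. Tests were two-sided, with Benjamini-Hochberg adjustment over 11859 genes and a threshold of 0.05. The 5 comparisons were TKO against control at P0 and at E17.5, their difference, and the change from E17.5 to P0 within either genotype. Errors are standard errors for changes and SDs for group means. The fit was tested on simulated data in which each gene varied independently and normally. These data lack differences that genes share on an array, so that test does not check the calls given here.

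Members, roles and gene lists were chosen with earlier results of these data known. Genes named are the 6 largest called changes per comparison and direction, complex II, tissue isoforms with their partners, genes whose probe sets oppose each other, and up to 2 risen and 2 fallen genes per list by smallest adjusted p. Other subunit genes are named to account for the calls, after their values were seen. Alternatives were quantile normalization, centred medians, no filter or one at the 75th percentile, averaged probe sets, leaving out _x_at and _s_at probe sets, only the groups compared, array weights, retina markers as a covariate, a robust trend and leaving out arrays.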

Additional observations from a re-analysis of the deposited data

Results flagged for a closer look

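In groups of 5 arrays, an array was singled out where its gap to the nearest other array exceeded 0.71 of the group's range (Dixon's 95% value). For independent normal values, chance alone gives about 1 in 20. The groups here share arrays, so the count cannot be set against that rate. Of 264 groups tested, 32 were singled out.

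TKO E17.5 replicate 28 accounted for 17 of them. In complex I it was high for Ndufs8 (12.12), Ndufa3 (12.71), Ndufa4 (11.73), Ndufa4l2 (7.79), Ndufa5 (10.69), Ndufa9 (10.84), Ndufb2 (11.84), Ndufb3 (10.3) and Ndufb11 (12.46), and low for Ndufb8 (12.01). In complex III it was high for Uqcrh (12.32) and low for Uqcrc1 (10.02). In complex IV it was high for Cox6b1 (13.31), Cox7a2 (13.31) and Cox8a (13.11), and low for Cox6a1 (13.03). The median deviation of the 61 subunit genes was 0.33 on that array and at most 0.07 on the other TKO E17.5 arrays. Its vessel (1.41), macrophage (1.58), erythroid (1.56) and pigment (1.42) markers also lay above their control means as median deviations, and their part in these values was not tested.

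Among TKO arrays, P0 replicate 22 was high for Sdhd (10.65) and low for Ndufb1 (9.22), P0 replicate 18 was low for Ndufa4 (11.21), E17.5 replicate 24 was high for Cox4i2 (4.71) and E17.5 replicate 26 was high for Cox8b (5.22). Among control P0 arrays, replicate 8 was high for Ndufab1 (11.33), Ndufs1 (9.26) and Cox7b2 (2.93) and low for Ndufb10 (9.97). Control P0 replicate 6 was low for Ndufs7 (9.7) and Uqcrb (12.6), and replicate 1 was high for Ndufc2 (12.21) and low for Ndufs5 (9.8), whose other end of the group was 10.67. Control E17.5 replicate 10 was high for Ndufb7 (12.66) and Ndufv3 (11.25).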

How the results depend on the processing

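No paired analysis was possible because the labels name no litter and pair no arrays. The count of subunit genes called at P0, 26 (42.6%, against 34.4% of all genes), became 17 with averaged probe sets (16 higher, 1 lower). That was 28.3%, against 32.2% of all genes, and so below the general share. The count became 14 with the retina covariate (23%, against 15%). With quantile normalization it was 22 (36.1%, against 36%), and so level with the general share. It was 25 with centred medians (41%, against 32.7%) and 24 with no filter (36.9%, against 22.3%). With the filter at the 75th percentile it was 28 (48.3%, against 42.5%). It was 31 with only the groups compared (50.8%, against 39.6%) and 32 with array weights (52.5%, against 41.9%). Without single arrays it was 20 to 28, where 25.8% to 36% of all genes were called. Below, a percentage in brackets is the share of all genes called. At E17.5, where 13% of all genes passed, the 4 became 2 with centred medians (10%), no filter (8.71%), array weights (6.01%) or the retina covariate (8.56%). They became 0 with only the groups compared (2.89%) and 10 without TKO replicates 24 and 27 (32.3%). Without single arrays the count was 1 to 9 (7.04% to 21.1%). The difference of effects ranged from 0 to 1 (0% to 2.71%). In control lenses, where 17.3% of all genes passed, the 7 stage calls became 2 with quantile normalization (16.5%) or the retina covariate (12.6%). They became 3 with no filter (10.7%) and 4 with averaged probe sets (15.8%). With only the groups compared they became 20 (37.4%) and with array weights 21 (39.2%). Without single arrays 2 to 4 were called (11.9% to 15.8%). In TKO lenses, where 33.2% of all genes passed, the 8 became 4 with centred medians (32.8%) or array weights (14.8%). They became 2 with only the groups compared (14.6%), and 4 to 27 without single arrays (25.4% to 41.8%). With averaged probe sets, Ndufab1 reversed at P0 (-0.0947) and between stages in TKO lenses (-0.30), as did Atp5g1 at P0 (-0.0382). The cause was not tested. Of the other values of named genes under an alternative, 9053 kept direction and side of the threshold, 331 lost a call and 175 gained one. With the retina covariate the median change at P0 was 0.187, against 0.167 without it. Low signal limits the 4 subunit genes below the filter; fitted without it, Cox7b2 was called at P0 (0.26 ± 0.09) and Cox4i2 (0.28), Cox7b2 (0.43) and Ndufb4 (0.34) between stages in TKO lenses.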
